A study of Mus musculus with 12 samples.

Results

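Among 27109 loci measured in mouse liver, 9 carry the names of long noncoding RNAs, and 4 of these are host genes of small nucleolar RNAs (snoRNAs). The 9 loci were found by symbol in the table of the study: Dancr, Gas5, Snhg1 and Snhg12, which host snoRNAs, the nuclear RNAs Malat1 and Neat1, the imprinted RNAs H19 and Meg3, and the liver RNA C730036E19Rik. The members were chosen by name with their FPKM in the 4 groups and the deposited fold changes in view, so their levels and fold changes are a description and no test of them is added here. Livers came from C57BL/6 mice in 4 groups of 3 libraries. Liver-specific Atf4 knockout mice received 1 mg/kg tunicamycin (KO-TM) or the solvent, 0.3% DMSO (KO-DMSO), and wild-type mice received the same tunicamycin dose (WT-TM) or the same DMSO (WT-DMSO). All injections were intraperitoneal and all livers were taken after 6 h. Atf4 encodes a transcription factor made during endoplasmic reticulum (ER) stress, and tunicamycin causes that stress by blocking N-linked glycosylation. The promoter behind the liver-specific deletion, the deleted exons, and the age and sex of the mice: none is given in the sources used here. Liver cells outside the deletion keep the gene.

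The introns of snoRNA host genes release snoRNAs, which guide methylation (box C/D class) or pseudouridylation (box H/ACA class) of ribosomal RNA. The spliced exons of Gas5 and Snhg1 carry early stop codons, are known targets of nonsense-mediated decay, and accumulate in cells whose translation is blocked. ER stress lowers general translation through phosphorylation of the initiation factor eIF2, while Atf4 mRNA is translated more. Malat1 gathers in nuclear speckles, which hold splicing factors, and Neat1 is the scaffold of paraspeckles, another kind of nuclear body. H19 and Meg3 are transcribed from the maternal chromosome. H19 is abundant in fetal liver and is repressed after birth, in mice partly through the factor Zhx2. C730036E19Rik carries in RefSeq the synonym lncLSTR, a liver-enriched mouse RNA described in triglyceride clearance, where it acts with the RNA-binding protein TDP-43 on the bile acid enzyme gene Cyp8b1.

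The loci that carry a snoRNA name beside the host name are Dancr (with Snora26), Snhg1 (with Snord22) and Snhg12 (with Snora61 and Snord99), so each value there counts reads of the host and of the snoRNA together. Those snoRNAs whose class can be read from their ends are shown, from the GENCODE M21 annotation of build GRCm38, 5′ to 3′. In the H/ACA snoRNAs Snora26 and Snora61 the capitals mark the ACA box, 3 bases from the 3′ end, and in the C/D snoRNA Snord99 they mark the core of box C and box D.
Snora26 of Dancr (chr5:74093530-74093650, plus strand): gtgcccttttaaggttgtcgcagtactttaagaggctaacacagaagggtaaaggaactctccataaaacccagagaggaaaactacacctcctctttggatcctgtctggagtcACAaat
Snora61 of Snhg12 (chr4:132310240-132310369, plus strand): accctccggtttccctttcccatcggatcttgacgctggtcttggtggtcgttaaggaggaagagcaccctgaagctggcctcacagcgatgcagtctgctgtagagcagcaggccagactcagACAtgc
Snord99 of Snhg12 (chr4:132310691-132310764, plus strand): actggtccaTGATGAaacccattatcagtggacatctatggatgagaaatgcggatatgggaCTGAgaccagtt

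The annotated starts of the hosts are shown because host genes of this kind often begin with a run of C and T (a terminal oligopyrimidine start), and those of Meg3 and C730036E19Rik because both changed with treatment. Each window holds 60 bases before and 30 bases after the start, from RefSeq on build GRCm38.p6. Capitals mark the run of C and T over the start and any palindromic cyclic AMP response element (CRE, TGACGTCA).
Gas5, first start (chr1:161034541-161034630, plus strand): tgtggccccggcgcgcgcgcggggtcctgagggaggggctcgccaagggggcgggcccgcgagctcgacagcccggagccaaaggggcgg
Gas5, second start (chr1:161035106-161035195, plus strand): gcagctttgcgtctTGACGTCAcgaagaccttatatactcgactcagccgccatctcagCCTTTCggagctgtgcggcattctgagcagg
Snhg1 (chr19:8723427-8723516, plus strand): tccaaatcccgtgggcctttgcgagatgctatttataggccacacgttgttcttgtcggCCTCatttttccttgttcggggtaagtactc
Snhg12 (chr4:132308618-132308707, plus strand): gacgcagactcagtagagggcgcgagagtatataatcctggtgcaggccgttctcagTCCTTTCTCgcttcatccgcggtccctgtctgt
Dancr (chr5:74093000-74093089, plus strand): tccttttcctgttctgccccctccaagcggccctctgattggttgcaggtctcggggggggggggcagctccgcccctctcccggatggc
Meg3, first start (chr12:109540936-109541025, plus strand): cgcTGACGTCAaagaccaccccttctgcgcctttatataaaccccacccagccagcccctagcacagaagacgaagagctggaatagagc
C730036E19Rik (chr1:151137974-151138063, plus strand): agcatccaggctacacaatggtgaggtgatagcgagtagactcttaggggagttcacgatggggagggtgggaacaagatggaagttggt
The run over the start had 9 bases in Snhg12, 6 at the second start of Gas5 and 4 in Snhg1, and no C or T run covered the first start of Gas5 or the starts of Dancr, Meg3 and C730036E19Rik. Of 32851 RefSeq promoters, 3.03% had a run of at least 9 bases, 7.25% of at least 6 and 14.0% of at least 4. The palindromic CRE lay 46 bases before the second Gas5 start and 57 bases before the first Meg3 start, and 1.79% of the promoters hold it on either strand within 300 bases. It was not found at the first Gas5 start or at a second annotated Meg3 start, which is not shown. This motif was added after the data were seen. The composite site bound by ATF4 with its partners (TGATGNAA, either strand, 3.97% of promoters) and the ER stress element (CCAAT and CCACG 9 bases apart, 0.119%) were not found in the 300-base windows of the members with an entry. H19 and Neat1 had no entry among the promoters.

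The unit is FPKM, which counts sequenced fragments relative to transcript length and to the mapped total, and the authors deposited 1 value per locus and group with the 3 libraries pooled. No spread over libraries can be given, the depth of each library is unknown, and the order of levels between groups has no error of its own. A locus is called, and rose or fell, where q in the authors' deposited table is under 0.05. KO-DMSO libraries were run on lane 5 and all 9 remaining libraries on lane 4. Wherever KO-DMSO enters, lane and group cannot be told apart. The Atf4 locus, which the table merges with Cacna1i, read 114 FPKM in KO-TM and 22.8 in KO-DMSO, against 356 in WT-TM and 46.9 in WT-DMSO, with KO-TM below WT-TM by a called log2 difference of -1.64. The stress genes Ddit3 (7.69 in knockout, 7.29 in wild type) and Trib3 (6.10 and 6.00) rose on the log2 scale with tunicamycin in both genotypes, among 5 of 5 tested ER stress genes. Of 6 hepatocyte markers, 5 reached 1 FPKM and summed to 6722 FPKM in KO-TM, 11854 in KO-DMSO, 7491 in WT-TM and 14222 in WT-DMSO, and Alb is listed at 0 in all 4 groups with a test status that stands for too much data. In bulk liver, fewer cells of a type and less RNA per cell cannot be told apart.

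Gas5, Snhg12 and Neat1 rose and C730036E19Rik fell with tunicamycin in both genotypes, while Dancr and Meg3 went opposite ways. In the knockout 6 rose (Gas5, Snhg12, Malat1, Neat1, H19 and Meg3) and 2 fell (Dancr and C730036E19Rik), and 33.0% of all tested loci were called in that comparison. In wild type 4 rose (Dancr, Gas5, Snhg12 and Neat1) and 2 fell (Meg3 and C730036E19Rik), where 37.1% of tested loci were called. Rises alone made up 18.1% of tested loci in both tunicamycin comparisons. Between KO-TM and WT-TM, H19 and Meg3 were higher among 8 tested members, with 5.92% of loci called and 3.73% higher. Between KO-DMSO and WT-DMSO, Dancr and Meg3 were higher among 9 tested, with 2.86% of loci called and 1.39% higher. The median log2 fold change of the members was 1.23, 1.04, -0.06 and -0.20 in these 4 comparisons, against 0.01, -0.02, -0.04 and -0.07 over all tested loci. Every group enters 2 of the comparisons, so these share their samples, and since the members were chosen with these values in view, nothing is read from their counts.

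**Figure D1:**
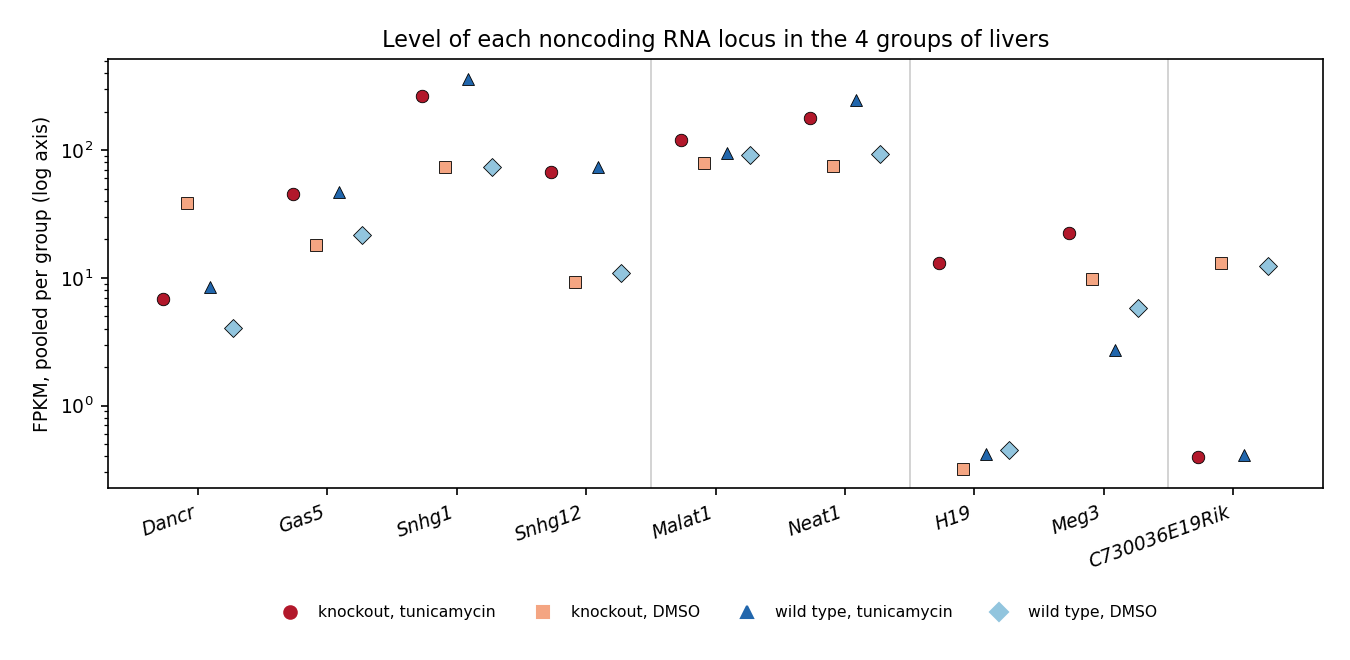
FPKM (log axis, pooled value of 3 libraries) of the 9 loci in KO-TM, KO-DMSO, WT-TM and WT-DMSO, 1 marker per group. Gas5, Snhg1, Snhg12 and Neat1 are high in both tunicamycin groups, H19 stands at 13.0 in KO-TM and under 1 elsewhere, and Dancr at 38.4 in KO-DMSO.

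**Figure D2:**
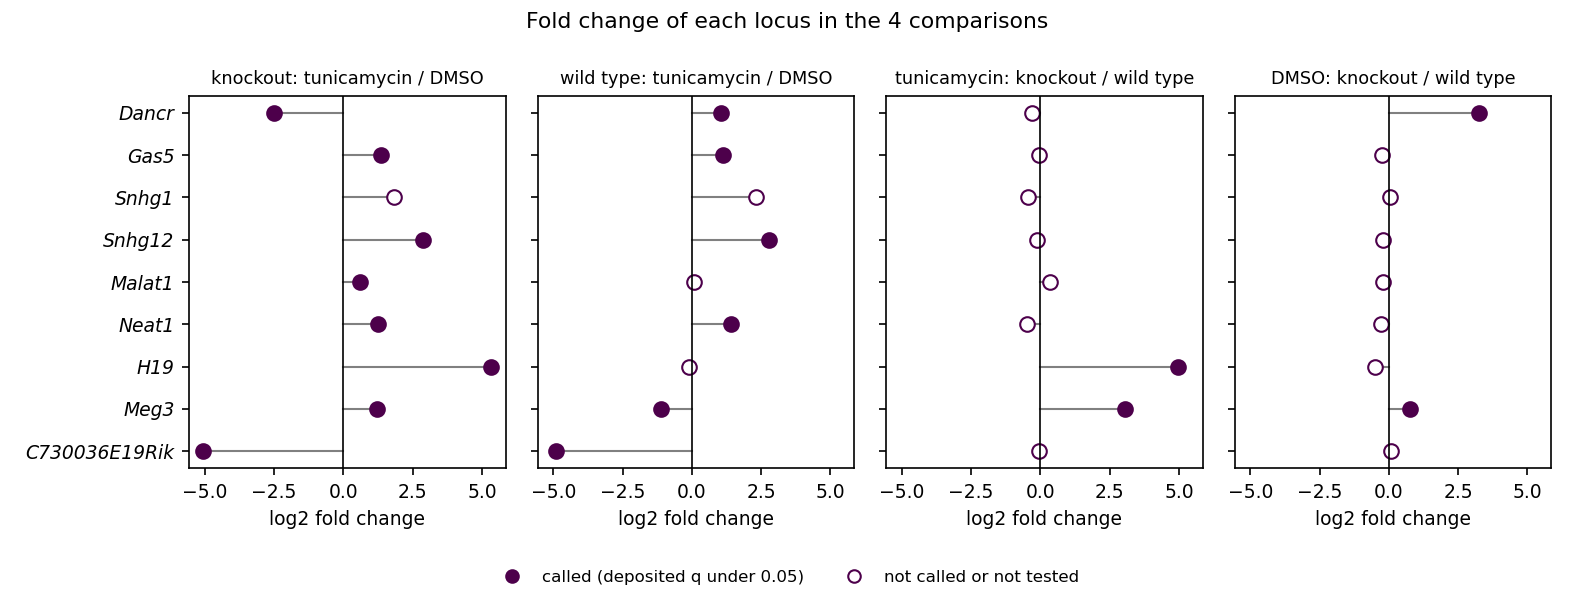
Log2 fold change of the 9 loci in each of the 4 comparisons, filled where called and open where not called or not tested. Snhg12 and C730036E19Rik have long bars of the same sign in both tunicamycin comparisons, and H19 and Meg3 lie to the right in the comparison of genotypes under tunicamycin.

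Of the snoRNA hosts, Snhg12 and Gas5 rose with tunicamycin in both genotypes. Snhg1 had large differences that were not called, and Dancr had opposite directions in the genotypes. Snhg12, which hosts box C/D and H/ACA snoRNAs (chr4:131864592-131866939, mm9), read 67.1 FPKM in KO-TM and 9.27 in KO-DMSO, against 73.8 in WT-TM and 10.8 in WT-DMSO. Both tunicamycin groups were thus close together and far above both DMSO groups. Its log2 fold change was 2.86 in the knockout and 2.77 in wild type, a rise of 7.24-fold and 6.80-fold. KO-TM against WT-TM differed by -0.14 (q 0.728 in the authors' deposited table) and KO-DMSO against WT-DMSO by -0.23 (q 0.710 in the same table). The snoRNAs Snora44 and Snora16a, listed as loci of their own at the same interval, were not called in any comparison, and Snora16a read 23.2, 27.5, 30.1 and 21.4 FPKM in KO-TM, KO-DMSO, WT-TM and WT-DMSO. Trnau1ap, 633 bases away and involved in selenocysteine tRNA function, read between 12.1 and 15.4 FPKM and was not called.

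Gas5, named for its rise in growth-arrested cells, showed the same order at a smaller size. It read 45.4 FPKM in KO-TM and 17.9 in KO-DMSO, against 47.2 in WT-TM and 21.4 in WT-DMSO, and rose by 1.34 in the knockout and 1.14 in wild type on the log2 scale. Between genotypes it differed by -0.06 under tunicamycin (q 0.912) and by -0.26 under DMSO (q 0.541), both in the authors' deposited table. The table gives Gas5 an interval of 53105 bases (chr1:162947698-163000803, mm9) that is also given for Zbtb37, which stayed between 1.91 and 2.12 FPKM. The loci overlap, and no source used here says whether counting used the strand, so reads shared between them cannot be told apart. Beyond that interval the antithrombin gene Serpinc1 and the centromere gene Cenpl were not called.

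Snhg1 was the most abundant annotated long noncoding RNA locus in KO-TM and in WT-TM, of 1786 such loci. It read 265 FPKM in KO-TM and 74.3 in KO-DMSO, against 361 in WT-TM and 73.1 in WT-DMSO (chr19:8797976-8801026, mm9). These are log2 differences of 1.83 in the knockout (3.57-fold) and 2.30 in wild type (4.93-fold), and neither was called. The authors' deposited table gives p 0.109 and q 0.272 in the knockout, and p 0.033 and q 0.109 in wild type. The standard error that the deposited test statistic implies was 1.44 and 1.33 on the log2 scale for Snhg1, against 0.24 and 0.23 for Gas5 and 0.29 and 0.29 for Snhg12. Slc3a2, the heavy chain of several amino acid transporters, lies 117 bases from Snhg1. Slc3a2 rose by 0.91 in the knockout and 1.39 in wild type, with KO-TM below WT-TM by -0.62 (q 0.00702, the authors' deposited table). On the other side the ribosome assembly gene Wdr74 (merged with 1700092M07Rik) rose by 1.63 in both genotypes and Stx5a, a syntaxin of ER to Golgi transport, by 2.37 in the knockout and 2.45 in wild type. Snhg1 thus lies among genes that rose with tunicamycin, and whether it shares reads with Slc3a2 was not tested.

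Dancr, an RNA known for holding progenitor cells undifferentiated, was the exception among the hosts. The merged locus Dancr with Snora26 (chr5:74489016-74490361, mm9) read 6.78 FPKM in KO-TM and 38.4 in KO-DMSO, against 8.41 in WT-TM and 4.08 in WT-DMSO. A single group stands apart, since KO-DMSO was 4.56 times the next group, and the other 3 lay between 4.08 and 8.41. Dancr therefore fell by 2.50 on the log2 scale with tunicamycin in the knockout and rose by 1.04 in wild type (q 0.0339 in the authors' deposited table, which does not pass a q of 0.01). KO-DMSO was higher than WT-DMSO by 3.23, or 9.41-fold. KO-TM and WT-TM, which share a lane, differed by -0.31 (q 0.619 in the authors' deposited table). Usp46, a ubiquitin protease gene 24567 bases away, read 3.69, 5.90, 2.79 and 5.84 FPKM in KO-TM, KO-DMSO, WT-TM and WT-DMSO, and did not share the KO-DMSO value.

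Several facts stand beside the KO-DMSO value of Dancr, and their part in it was not tested. The KO-DMSO libraries alone ran on lane 5. Some loci merged with a small RNA name were far apart in 1 group: of 13 with at least 5 FPKM, 3 (23.1%) had 1 group at 4 or more times every other, which were Dancr, Mir17hg and the Mir1940 locus. Small RNAs listed alone gave 12 of 41 (29.3%), while merged loci without a small RNA gave 3 of 257 (1.17%) and all other loci 94 of 9156 (1.03%). This limit was chosen after the values were seen, and the 23.1% counts Dancr itself. KO-DMSO was the highest group in 1 of the 3, 1 of the 12, 0 of the 3 and 1 of the 94, in the order given. KO-TM was the highest in 1, 3, 3 and 74 of them. The Mir1940 locus, where KO-TM was 4.07 times KO-DMSO, was not tested by the authors in any comparison used here. Markers of liver endothelium summed to 83.6 FPKM in KO-TM and 138 in KO-DMSO, against 114 in WT-TM and 90.3 in WT-DMSO. Of these 8 markers, 7 were higher in KO-DMSO than in WT-DMSO, 4 fell with tunicamycin in the knockout and 3 rose in wild type. Of all tested loci 1.39% were higher in KO-DMSO than in WT-DMSO. With tunicamycin 14.8% of them fell in the knockout and 18.1% rose in wild type. Between the DMSO groups those of stellate cells and fibroblasts summed to 160 FPKM in KO-DMSO and 146 in WT-DMSO, with 4 of 8 higher. None of these markers is listed at 0 in any group.

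Many other noncoding hosts rose with tunicamycin in both genotypes. Of 17 such genes, 16 were tested, and 9 rose and 1 fell in the knockout, while 8 rose and 1 fell in wild type, where 18.1% of all tested loci rose in each comparison. Their median log2 fold change was 1.29 in the knockout and 1.13 in wild type. Snhg5 rose by 2.46 in the knockout and 2.59 in wild type, and Snhg16 by 2.22 and 2.76. Snhg3 rose by 1.82 and 1.16, Snhg18 by 1.51 and 1.42, Snhg6 by 1.47 and 1.65, and Snhg15 by 1.15 and 1.81, in knockout and wild type. Snhg11 was the one that fell, by 1.26 in the knockout and by 1.47 in wild type, and it was also the one host higher in KO-TM than in WT-TM (0.600 and 0.255 FPKM) and in KO-DMSO than in WT-DMSO (1.43 and 0.706 FPKM). Both genotype calls of Snhg11 end with a q computed within the comparison or a q of 0.01. For none of the 16 did the response differ between genotypes in the test of that difference, which called 1.01% of 14510 loci (adjusted p under 0.05) and gave 0 calls and 0 unadjusted p under 0.05 here.

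**Figure D3:**
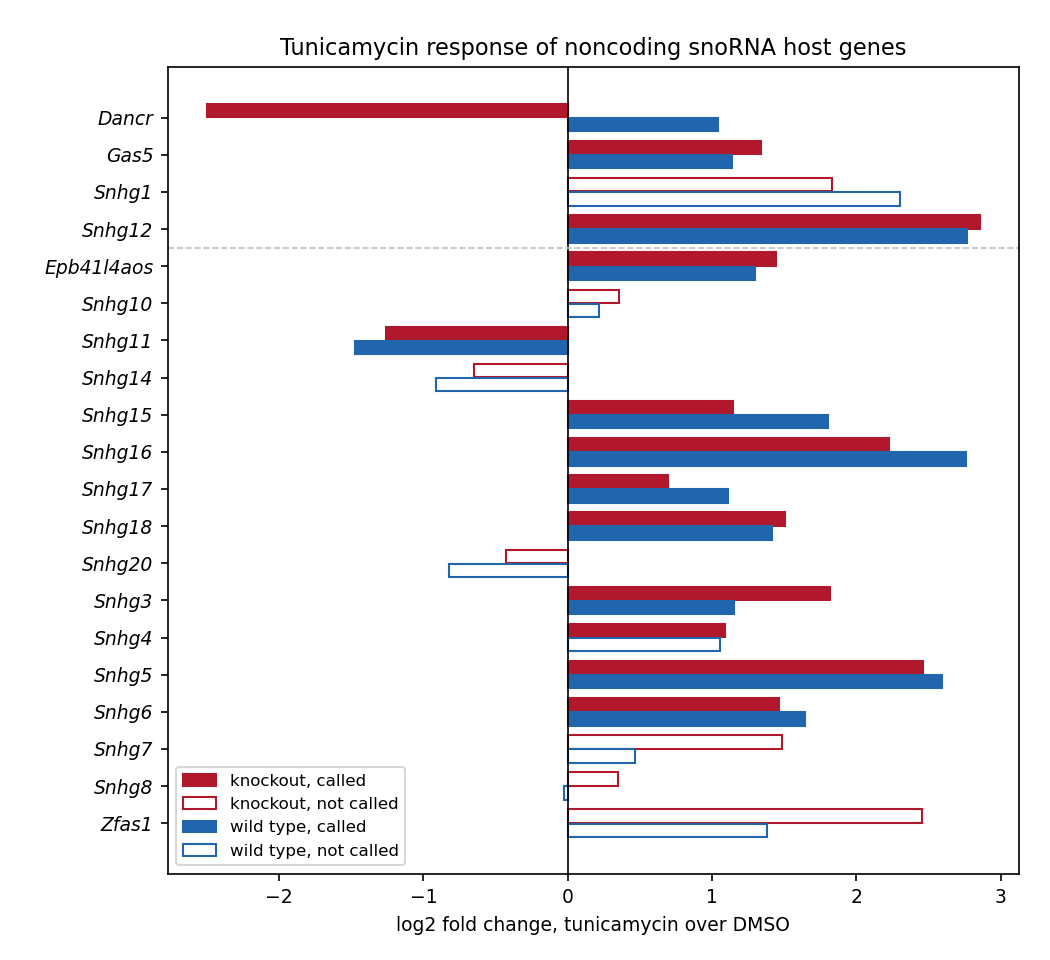
Log2 fold change of tunicamycin over DMSO for the 4 member hosts (above the dashed line) and the other noncoding snoRNA hosts with a finite value, knockout in red above wild type in blue, filled where called. Most pairs of bars point right with like lengths, Dancr points left in the knockout only, and Snhg11 points left in both.

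Of 27 protein-coding hosts tested, 10 rose and none fell in the knockout, and 8 rose and 2 fell in wild type, where 18.1% of all tested loci rose in each comparison. Their median log2 fold changes were 0.41 and 0.20, and a 2-fold minimum left 6 and 5 calls. The largest rises were Ppan (2.33 in knockout, 2.70 in wild type), Wdr43 (2.24 and 2.23) and Nop56 (2.13 and 1.99). Of 14 hosts that encode ribosomal proteins, 2 were called in each genotype, Rpl3 and Rps12, counted after the values were seen. Rpl3 rose by 0.88 in the knockout and 0.60 in wild type. Rps12 read 6.09 FPKM in KO-TM and 2.25 in KO-DMSO, against 6.83 in WT-TM and 23.1 in WT-DMSO. Between KO-DMSO and WT-DMSO, Rps12 (-3.36), the chaperone Hspa8 (-0.82) and the helicase Eif4a2 (-0.61) were lower.

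Of 17 proteins that bind snoRNAs or assemble them into particles, 12 rose in the knockout and 10 in wild type and none fell, against rises in 18.1% of all tested loci. Their median log2 fold changes were 0.96 and 0.84, and a 2-fold minimum left 5 calls in wild type. Nop58, a core protein of the box C/D particle, read 104 FPKM in KO-TM and 13.4 in KO-DMSO, against 113 in WT-TM and 13.5 in WT-DMSO. Its log2 fold change was 2.95 in the knockout and 3.07 in wild type. Gar1 of the box H/ACA particle rose by 2.17 and 2.43, and the chaperone Nolc1 by 1.30 and 1.75. Between genotypes 0 of the 17 were called and 0 reached an unadjusted p under 0.05 (p-values of the authors' deposited table), under tunicamycin or DMSO. Over all tested loci 5.92% were called between genotypes under tunicamycin and 2.86% under DMSO. At such shares few calls are due among 17 genes.

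The snoRNAs themselves could hardly be measured. Libraries were made from poly(A) RNA, which mature snoRNAs lack. Of 96 loci named for 1 or more snoRNAs alone, 67 are listed at 0 in all 4 groups. Between 15 and 20 were tested in a comparison, with 0 called by the deposited q and an unadjusted p under 0.05 for 0, in the authors' deposited table. The level of the snoRNAs is therefore not given by these data.

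Factors of nonsense-mediated decay, the pathway known to degrade Gas5 and Snhg1, rose or were not called. Of 16 tested, 4 rose in the knockout and 8 in wild type, and 0 fell, against rises in 18.1% of all tested loci. A q of 0.01 left 4 calls in wild type, and a 2-fold minimum left 2 in each genotype. Nbas, which acts in decay and in Golgi to ER transport, rose by 1.70 in the knockout and 2.23 in wild type. The exon junction proteins Magoh (1.08 and 1.02) and Eif4a3 (0.87 and 0.86) rose in both genotypes, as did Smg5 (0.75 and 0.59). Upf2 rose by 0.74 in wild type and differed by 0.47 in the knockout, where it was not called. Between genotypes 0 were called and 0 reached an unadjusted p under 0.05 (p-values of the authors' deposited table). The share of all tested loci called there was 5.92% under tunicamycin and 2.86% under DMSO, so few calls are due among 16 genes.

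Neat1, at its short 5′ part, rose with tunicamycin in both genotypes, and Malat1 rose by a smaller step in the knockout. Neat1 read 177 FPKM in KO-TM and 75.4 in KO-DMSO, against 246 in WT-TM and 92.8 in WT-DMSO (chr19:5842301-5845478, mm9). It rose by 1.23 in the knockout and 1.41 in wild type on the log2 scale. KO-TM against WT-TM was -0.47 (q 0.108) and KO-DMSO against WT-DMSO -0.30 (q 0.445), neither called in the authors' deposited table. Malat1 read 121 FPKM in KO-TM and 79.9 in KO-DMSO, against 95.7 in WT-TM and 91.5 in WT-DMSO (chr19:5795689-5802671, mm9). Its rise of 0.59 in the knockout had a q of 0.0444, and the wild-type value of 0.06 a q of 0.903, both in the authors' deposited table. The knockout call does not hold with a q of 0.01 or a 2-fold minimum. Whether these responses of Malat1 differ was not tested.

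Downstream of Neat1 the reads went the other way. RefSeq gives Neat1 a length of 20773 bases, of which the named locus covers 3177. An unnamed locus begins 480 bases behind it and reaches 20859 bases from the Neat1 start, the stretch where the long, paraspeckle-forming RNA is annotated (chr19:5824619-5841821, mm9). It read 0.448 FPKM in KO-TM and 2.60 in KO-DMSO, against 0.402 in WT-TM and 1.15 in WT-DMSO. It fell by 2.54 in the knockout and fell by 1.52 in wild type, and KO-DMSO was above WT-DMSO by 1.17 (q 0.00527 in the authors' deposited table). The named Neat1 locus was 395 times the unnamed one in KO-TM and 29.0 times in KO-DMSO, against 613 times in WT-TM and 80.5 times in WT-DMSO. This locus was looked at after its values were seen. The long RNA ends without a poly(A) tail, as Malat1 does, and the libraries were selected for poly(A), so levels here need not follow the whole RNA. Frmd8 lies 223 bases from the other end of Neat1. At the more abundant of its loci Frmd8 fell by 1.19 in the knockout and fell by 1.71 in wild type.

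**Figure D4:**
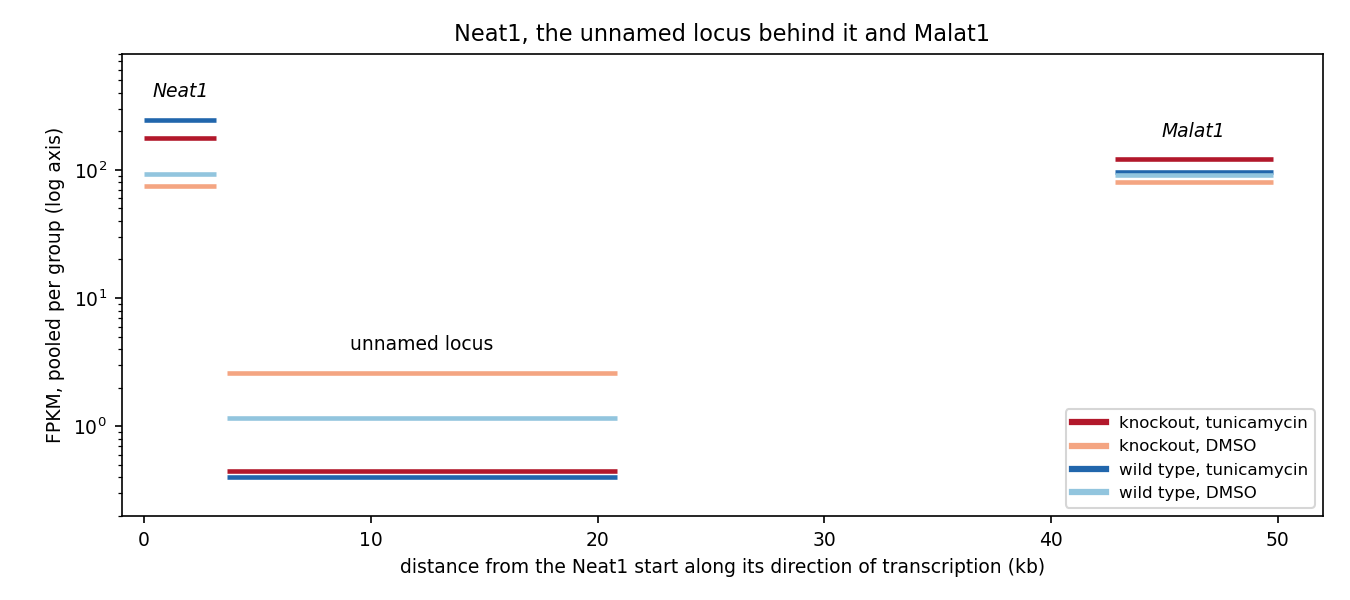
FPKM (log axis) of Neat1, the unnamed locus behind it and Malat1, drawn to scale against distance in kb from the Neat1 start, 1 line per group. Both tunicamycin lines lie above both DMSO lines at Neat1 and below them at the unnamed locus.

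Of 15 paraspeckle proteins tested, 2 rose in the knockout and 3 in wild type, a share near the 18.1% of all tested loci that rose, with medians of 0.01 and 0.03. Taf15, an RNA-binding protein, rose by 1.61 in the knockout and 2.06 in wild type, and Pspc1, a core paraspeckle protein, by 1.66 and 1.44. Of 11 speckle and Malat1 processing proteins, 6 rose in the knockout and 8 in wild type, and none fell. A 2-fold minimum left 1 and 2 of these calls, and a q of 0.01 left 5 in wild type. Among them were the splicing factors Srsf7 (1.43 and 1.30) and Srsf2 (0.91 and 0.97), Elac2, the nuclease known to cut tRNA 3′ ends (0.83 and 1.07), and Mettl16, which binds the 3′ triple helix of human MALAT1 (0.92 and 0.73). The median of this list was 0.65 in both genotypes. For both lists 0 genes were called between genotypes and 0 reached an unadjusted p under 0.05 (p-values of the authors' deposited table). The share of all tested loci called there was 5.92% under tunicamycin and 2.86% under DMSO, so few calls are due in lists this short.

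H19 was high in 1 group alone. It read 13.0 FPKM in KO-TM and 0.319 in KO-DMSO, against 0.418 in WT-TM and 0.452 in WT-DMSO (chr7:149761435-149764051, mm9). The 3 other groups thus lay between 0.319 and 0.452 FPKM, and KO-TM was 28.6 times the next group. On the log2 scale H19 rose by 5.34 with tunicamycin in the knockout and differed by -0.12 in wild type (q 0.927 in the authors' deposited table), and KO-TM was above WT-TM by 4.95. Among 1786 annotated long noncoding RNA loci it ranked 34 in KO-TM, and 354, 283 and 304 in KO-DMSO, WT-TM and WT-DMSO. Igf2, the growth factor gene of the same imprinted domain, 72621 bases away, read 0.453 FPKM in KO-TM, 0.258 in KO-DMSO, 0.163 in WT-TM and 0.127 in WT-DMSO. It was higher in KO-TM than in WT-TM by 1.47 (q 0.0203 in the authors' deposited table).

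Meg3 responded in opposite directions in the genotypes. It read 22.4 FPKM in KO-TM and 9.76 in KO-DMSO, against 2.71 in WT-TM and 5.79 in WT-DMSO (chr12:110779205-110809939, mm9, merged with Mir1906-1 and Mir770). Both knockout groups were above both wild-type groups. Meg3 rose by 1.20 in the knockout (q 0.00140) and fell by 1.10 in wild type (q 0.00553), in the authors' deposited table. KO-TM was above WT-TM by 3.05, or 8.27-fold, and KO-DMSO above WT-DMSO by 0.75 (q 0.0209, the authors' deposited table), or 1.68-fold. The call between the DMSO groups ends with a q computed within that comparison (0.270), with a q of 0.01 and with a 2-fold minimum. Rian, the next RNA of the same maternally expressed domain (merged with AF357359), had the same order at lower levels, with 4.17 FPKM in KO-TM and 1.86 in KO-DMSO, against 0.512 in WT-TM and 1.23 in WT-DMSO. Rian was called between KO-TM and WT-TM (3.03) and not in the other 3 comparisons. The paternally expressed Dlk1 of this domain read 3.42 FPKM in KO-TM and 0.018 in KO-DMSO, was listed at 0 in WT-TM, and read 0.0090 in WT-DMSO. Dlk1 was not called for KO-TM against KO-DMSO (q 0.117) or against WT-TM (q 0.0638), in the authors' deposited table. The remaining comparisons were not tested for Dlk1.

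Other imprinted genes followed H19 or went their own way. Of 17, 12 were tested and 3 rose in the knockout, and 1 of 10 rose and 1 fell in wild type. Rises made up 18.1% of all tested loci in both of these comparisons, and whether the imprinted genes differ from that share was not tested. Under tunicamycin 5 of 12 were higher in the knockout and 1 lower, against 3.73% and 2.19% of all loci. The cell-cycle inhibitor Cdkn1c read 6.04 FPKM in KO-TM and 1.82 in KO-DMSO, against 1.42 in WT-TM and 1.93 in WT-DMSO, and Ndn, a MAGE family protein, 2.91, 0.663, 0.453 and 0.700 in the same groups. Grb10, an adaptor that dampens insulin signalling, rose by 1.95 in the knockout and 3.41 in wild type. Igf2r, the clearance receptor of IGF2, fell by 0.84 in wild type. Of the 3 genes tied to H19 through Zhx2, the cell-surface proteoglycan Gpc3 rose by 1.69 in the knockout and was above WT-TM by 1.57. Afp, the fetal albumin relative, fell by 1.48 in wild type from levels under 1 FPKM and differed by -0.59 in the knockout (not called). Zhx2 itself rose by 0.81 in wild type and differed by 0.50 in the knockout (not called).

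Markers of other tissues were high in the same KO-TM group. Of 7 skeletal muscle markers, which summed to 274 FPKM in KO-TM and 0.67 in KO-DMSO against 3.80 in WT-TM and 0.40 in WT-DMSO, 5 were higher in KO-TM than in WT-TM. Adrenal markers summed to 1040 FPKM in KO-TM and 6.65 in KO-DMSO, against 23.1 in WT-TM and 8.63 in WT-DMSO, with 3 of 7 higher in KO-TM than in WT-TM. Of all tested loci 3.73% were higher in that comparison. Fat markers summed to 25.0, 0.69, 0.12 and 0.08 FPKM in KO-TM, KO-DMSO, WT-TM and WT-DMSO, and between KO-TM and WT-TM 0 of 4 tested were called, with 2 at an unadjusted p under 0.05 in the authors' deposited table. No marker of the 3 tissues is listed at 0 in KO-TM. Elsewhere Th and Dbh (adrenal medulla) and Ucp1 (brown fat) are listed at 0 in KO-DMSO, Plin1 and Lep in WT-TM, and Ckm, Th and Lep in WT-DMSO. H19, Meg3, Cdkn1c, Ndn and Dlk1 are known to be expressed in 1 or more of these tissues. The part of this RNA in their values was not tested, and since the libraries are pooled it cannot be seen whether 1 liver carries them. Of the remaining cell types, macrophage and cholangiocyte markers had 0 calls between genotypes, with 2 and 0 at an unadjusted p under 0.05 under DMSO and 0 and 0 under tunicamycin, per the authors' deposited table. Over all tested loci 5.92% were called between genotypes under tunicamycin and 2.86% under DMSO.

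**Figure D5:**
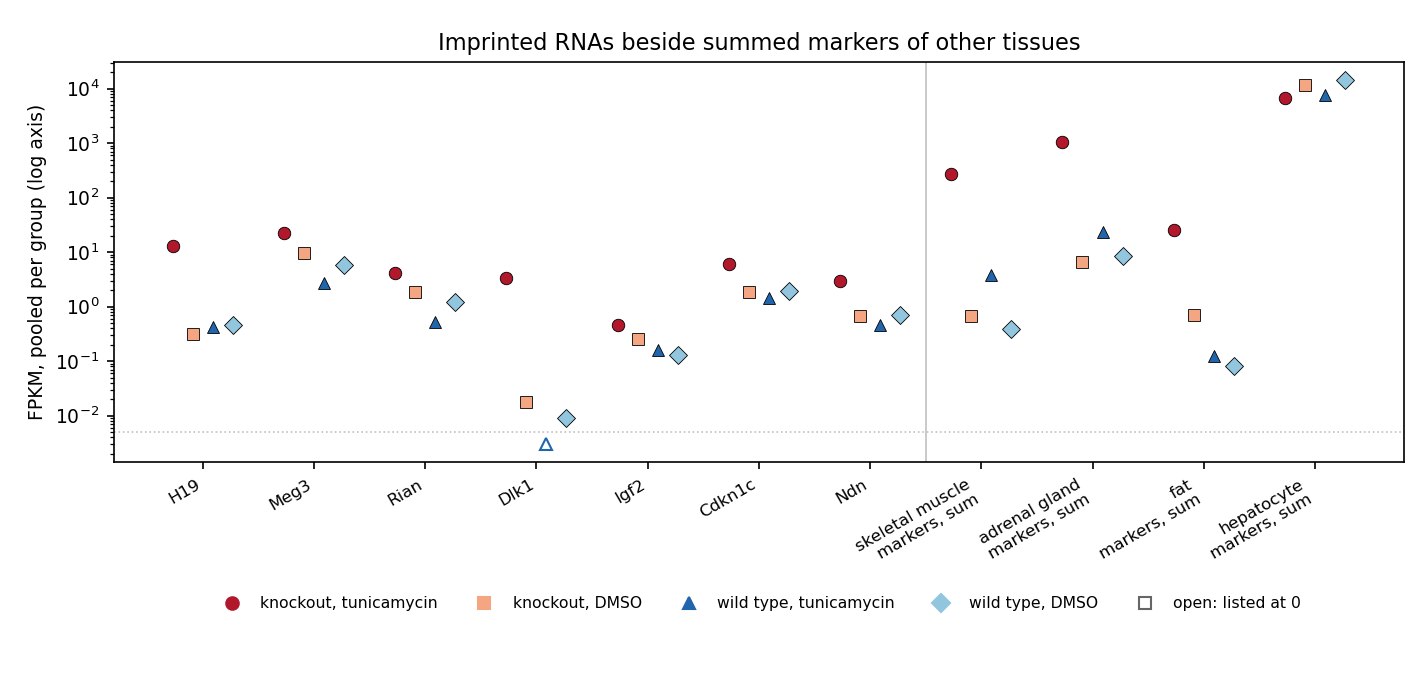
FPKM (log axis) of imprinted RNAs and the summed FPKM of markers of skeletal muscle, adrenal gland, fat and hepatocytes in KO-TM, KO-DMSO, WT-TM and WT-DMSO. KO-TM is the highest group for each of the 7 RNAs and for the muscle, adrenal and fat sums, and a marker under the dotted line is listed at 0.

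C730036E19Rik fell to near 0 after tunicamycin in both genotypes. It read 0.394 FPKM in KO-TM and 13.0 in KO-DMSO, against 0.409 in WT-TM and 12.3 in WT-DMSO (chr1:152975656-152991278, mm9). The pooled values of the tunicamycin groups lie together, as do those of the DMSO groups. Whether single libraries overlap cannot be seen from pooled values. It fell by 5.05 in the knockout and fell by 4.91 in wild type on the log2 scale, which is 33.1-fold and 30.1-fold. KO-DMSO against WT-DMSO was 0.08 (q 0.863 in the authors' deposited table), and KO-TM against WT-TM was not tested by the authors. Its rank among 1786 long noncoding RNA loci was 301 and 286 in KO-TM and WT-TM and 26 and 33 in KO-DMSO and WT-DMSO. Between 104 and 7472 bases upstream, 3 unnamed loci are listed at 0 in KO-TM and WT-TM and read between 0.357 and 0.563 FPKM in KO-DMSO and WT-DMSO. They were looked at after the values of C730036E19Rik were seen.

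Genes that earlier work in mice tied to this RNA did not move as a block, and they too were picked after its values were seen. Cyp8b1, the sterol 12-alpha-hydroxylase, read 56.9 FPKM in KO-TM and 42.5 in KO-DMSO, against 105 in WT-TM and 60.2 in WT-DMSO. It rose by 0.81 in wild type, differed by 0.42 in the knockout (q 0.134 in the authors' deposited table), and was lower in the knockout under tunicamycin (-0.89) and DMSO (-0.50). Apoc2, the activator of lipoprotein lipase, fell by 1.39 in the knockout and fell by 1.74 in wild type. Tardbp, which encodes TDP-43, and Nr1h4, the bile acid receptor FXR, were not called in any of the 4 comparisons. Cyp7a1, the rate-limiting enzyme of bile acid synthesis, fell by 3.34 in the knockout and fell by 2.93 in wild type.

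Most annotated long noncoding RNAs were low or listed at 0. Of 1753 single-gene loci that RefSeq annotates as long noncoding RNA, 219 reached 1 FPKM in a group and 715 are listed at 0 in all 4. Of 318 tested in the knockout, 30 rose and 39 fell (21.7% called), and of 316 in wild type 23 rose and 44 fell (21.2%), while 36.1% and 40.7% of protein-coding loci were called. The median log2 fold change of the class was -0.41 in the knockout and -0.42 in wild type. Between genotypes 4.66% of the class were called under tunicamycin and 1.63% under DMSO, against 6.55% and 3.08% of protein-coding loci. In a list of 43 other well-studied long noncoding RNAs, 37 matched a locus. There 2900097C17Rik rose by 0.50 in the knockout and 0.66 in wild type, the growth-linked Mir17hg rose by 0.93 in the knockout and fell by 2.57 in wild type, and Oip5os1 and Mirt2 fell by 0.80 and fell by 1.53 in wild type. A q of 0.01 or a 2-fold minimum left 0 calls of this list in the knockout and 2 in wild type. Among p53 targets, listed because Neat1 is a known target, Bax and Cdkn1a were higher in the knockout under tunicamycin (1.05 and 0.62) and DMSO (0.63 and 1.47), with 4 of 7 and 5 of 7 genes higher, against 3.73% and 1.39% of all tested loci. With a q computed within the comparison 1 of the 5 calls under DMSO was left, and a q of 0.01 left 2. A 2-fold minimum left 2 under tunicamycin and 2 under DMSO. Neat1 was not called in either.

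The members differed in how many loci had a profile close to theirs. For each, the distance to all named single-gene loci with at least 5 FPKM in a group was taken between profiles of log2(FPKM + 0.1) over the 4 groups, each centred on its own mean. Gas5 had 989 of 8199 loci within a distance of 0.5, Neat1 703 and Snhg1 256, and the nearest were Cebpz (0.03) for Gas5, Slc2a1 (0.02) for Neat1 and A630007B06Rik (0.02) for Snhg1. Snhg12 had 86 such loci, with Nol8 (0.12), Creb3l2 (0.14) and D030028A08Rik (0.16) nearest. C730036E19Rik had 2, Tmem25 (0.42) and Lipg (0.45), and H19 had 1, Rgcc (0.18). Meg3 and Dancr had none, and their nearest were Ldhb (0.67) and Mir1957b (1.02). Malat1 spanned less than 1 on the log2 scale and was left out. The distance depends on the size of a fold change as well as its direction, so a member with large folds can have few loci near it. A level high in KO-TM alone, as in H19, was not rare. Of the 94 other loci above with 1 group at 4 or more times every other, 74 were highest in KO-TM. These distances rest on 4 pooled values each and are a description.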

How the data were processed

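Poly(A) RNA of 12 mouse liver libraries was sequenced, 3 in each of 4 groups. The submitters' processing notes name bcl2fastq, TopHat2 2.0.4 with the mouse build mm9, Cufflinks and Cuffdiff. The annotation, filters, strand setting and scaling of libraries: none is given in the sources used here. Labels name ERCC spike-in RNA, whose use in scaling is not given either. Per the file headers, the authors deposited 1 FPKM per locus and group with the libraries pooled. Each of 6 comparisons has, as deposited, its log2 fold change, p-value, q-value and test statistic (a score). The labels do not say whether the libraries of a group are separate animals, so p-values may cover technical spread only.

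Log2 fold changes were computed from the deposited FPKM and matched the deposited column within 1.29e-05 at 1 FPKM or more. The deposited q-values equal a Benjamini-Hochberg adjustment over 90828 tests of all 6 comparisons, and the smallest deposited p-value is 5e-05. A call needs a deposited q under 0.05 and a completed test, and 4 comparisons were used. Left out were both crossed comparisons (another genotype and another treatment at once). The difference of the tunicamycin responses was tested for list genes by a normal test over 14510 loci, with standard errors from the deposited statistics scaled by their p-values (Benjamini-Hochberg adjusted). Tested on simulated data, it called 145 of 200 loci changed by 2 on the log2 scale, with 3 false calls among 14510 loci. The simulated noise was normal with the standard errors that the test assumes, so it cannot show whether those errors are right.

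The 9 members, 11 gene lists, 8 marker lists (225 genes, 219 matched), tests and motifs were chosen with earlier results of these data known. Genes named from a list are the up to 4 called genes with the largest fold change and at least 1 FPKM in the higher group, per comparison, and all of a list of 3. Genome neighbours are the 2 nearest named loci on each side within 100 kb, and genes most like a member are the 3 nearest profiles. Features named outside these rules are said to be chosen after their values were seen. Some genes that these rules name are not reported here. Alternatives were the q family, a q of 0.01, a 2-fold minimum, a minimum of 1 FPKM, pseudocounts of 0.1 and 1 FPKM, median centring, summed loci and unscaled standard errors. Locus positions are in mm9 as deposited, and sequences are from GRCm38, with no conversion between them. Versions were matplotlib 3.10.9, scipy 1.17.1, pandas 2.3.3 and numpy 2.4.6 under Python 3.11.15.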

Additional observations from a re-analysis of the deposited data

Results flagged for a closer look

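In 5 genes of the 11 gene lists the tunicamycin response differed between the genotypes by the test of that difference (normal test, Benjamini-Hochberg adjusted over 14510 loci). The lists had 144 tested entries, where a gene in more than 1 list counts in each. Over all 14510 loci the test called 1.01%. Given as the knockout response minus the wild-type response on the log2 scale, the difference was 3.19 for the ribosomal protein host Rps12 (adjusted p 9.73e-08) and 3.50 for the microRNA host Mir17hg (adjusted p 1.01e-06). Both were lowest in KO-DMSO and highest in WT-DMSO: Mir17hg read 4.11 FPKM in KO-TM and 2.16 in KO-DMSO, against 3.66 in WT-TM and 21.7 in WT-DMSO. The difference was 2.17 for Cdkn1c (adjusted p 0.00344) and 2.76 for Ndn (adjusted p 0.00529), both highest in KO-TM. It was -1.47 for Grb10 (adjusted p 0.0172), which read 5.49 FPKM in KO-TM and 1.43 in KO-DMSO, against 12.0 in WT-TM and 1.13 in WT-DMSO. With unscaled standard errors 0 of the 5 were called. KO-DMSO enters all of these, so its lane cannot be told apart from the group, and the markers of muscle, adrenal gland and fat given above were high in KO-TM. Their part in these values was not tested. Of 39 marker genes in the same test, 13 were called: 6 of 8 for endothelium, 3 of 8 for stellate cells and fibroblasts, 2 of 3 for skeletal muscle and 2 of 3 for adrenal gland. With unscaled standard errors 2 of these 13 were called, both of the adrenal list.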

How the results depend on the processing

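No paired analysis was possible because the deposited values are pooled per group and the labels give no replicate number that pairs libraries. For the same reason no library could be left out, and no value per lane can be had. All 36 log2 fold changes of the members kept their sign with a pseudocount of 0.1 FPKM and with summed loci. Median centring kept the sign of 34, and turned the differences of Gas5 (0.0005) and C730036E19Rik (0.0047) between KO-TM and WT-TM, neither of which was called. A pseudocount of 1 FPKM moved 4 of them: H19 to 3.40 in the knockout response and 3.30 for KO-TM against WT-TM, and C730036E19Rik to -3.33 in knockout and -3.24 in wild type. Of the member calls, Malat1 in the knockout and Meg3 between the DMSO groups did not hold with a q of 0.01 or a 2-fold minimum, and Dancr in wild type did not hold with a q of 0.01. With q computed within the comparison, the Meg3 call between the DMSO groups ended (q 0.270).

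Over all loci, a 2-fold minimum left 3007 calls for KO-TM against KO-DMSO, 3372 for WT-TM against WT-DMSO, 534 for KO-TM against WT-TM and 105 for KO-DMSO against WT-DMSO. A q within the comparison left 557 calls between KO-TM and WT-TM and 105 between the DMSO groups, and a q of 0.01 left 557 and 170. The single noncoding host called between genotypes (Snhg11) was lost with both (0 calls under tunicamycin and 0 under DMSO), and under tunicamycin also with a minimum of 1 FPKM. Unscaled standard errors left 0 of 5 differing responses. Depth per library is unknown, so no limit of detection is given for loci listed at 0.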
